A study of Mus musculus with 12 samples.

Results

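The genes described here encode proteins that release, take up, buffer or clear calcium in heart muscle, most of them in the sarcoplasmic reticulum, the store whose release starts each contraction. They are Ryr2, Casq2, Trdn, Jph2, Hrc, Asph, Atp2a2, Pln, Srl and Slc8a1. They were taken by symbol, with every probe set (a group of short probes for one transcript) that the array's annotation gives to one of these genes alone. All 10 were on the array, out of 18193 genes with such a probe set, and they had 32 probe sets between them.

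In a heartbeat, calcium entering through the cell surface opens the ryanodine receptor, and the sarcoplasmic reticulum empties part of its store into the cell. The calcium pump SERCA2a then returns most of it, under the brake of phospholamban, while the sodium-calcium exchanger carries the rest out of the cell. Reduced pump function and a leaky ryanodine receptor are well known in hearts failing under pressure overload.

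Total RNA from 12 mouse hearts was measured on Affymetrix expression arrays, with 3 arrays in each of 4 groups. The first group was apelin-knockout mice whose aorta had been narrowed by a band, so that the left ventricle ejects against a raised load. The second was apelin-knockout mice with a sham operation, the third banded wild-type mice and the fourth wild-type mice with a sham operation. Apelin is a secreted peptide that raises the force of the heartbeat. The labels used here name no strain, sex, age, time from surgery or part of the heart. The labels call the arrays of a group biological replicates. The groups were set against one another for the effect of banding in each genotype, the effect of genotype in each surgery, and the difference between the banding effects.

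Values are linear intensities as deposited, scaled so that each array had the same trimmed mean of 150. Array medians were between 40.3 and 50.4. The bright end of the range was less even than the middle. The intensity that 0.1% of probe sets exceeded was 7755, 7778 and 8089 in the knockout banded arrays and 10113, 9082 and 9116 in the knockout sham arrays. It was 8683, 10409 and 9187 in the wild-type banded arrays and 9699, 7607 and 13389 in the wild-type sham arrays. Knockout banded arrays were thus below all knockout sham arrays there, and the wild-type sham arrays spanned the whole range. Atp2a2 and Pln have probe sets at or near this level, and other calcium genes have bright ones below it. The main results are therefore also given after quantile normalisation, which gives every array the same distribution of values. For the few brightest probe sets this step leaves little room to differ between arrays. It therefore shrinks a change that they share, whether that change lies in the scaling or in the RNA.

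Apln, the targeted gene, read 271, 123 and 160 in knockout banded arrays and 63.7, 111 and 85.4 in knockout sham arrays. It read 205, 223 and 255 in wild-type banded arrays and 333, 323 and 212 in wild-type sham arrays. The array labelled knockout banded 1 therefore lay within the wild-type range for Apln, and it also carried the lung transcript Scgb1a1 at 1094, against 1.93 to 49.8 in the other arrays. Wild-type banded 3 read 1255 for Xist, a transcript of female cells, against 43.3 to 89.2 in the others. Atrial transcripts differed widely from array to array, and Sln, the atrial inhibitor of the calcium pump, was between 1.42 in wild-type banded 3 and 7649 in wild-type banded 1. The part of atrial tissue in the results below was not tested. Results were recomputed without knockout banded 1 and wild-type banded 3.

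After banding in knockout hearts, Ryr2 was lower, at 0.691-fold of the knockout sham level, and it was the 1 gene of the 10 that passed the test. Hrc, Trdn, Atp2a2, Asph, Pln, Jph2, Srl, Slc8a1 and Casq2 had negative estimates that did not pass. Over all genes tested, 53.1% of estimates were negative. Across all 10916 genes tested with limma, 3.81% passed in either direction in this comparison and 1.76% passed as lower, at a Benjamini-Hochberg adjusted p under 0.05. The median log2 difference of the 10 genes was -0.31, against -0.02 for all genes tested, and after quantile normalisation it was -0.16, against -0.01. In bulk tissue, fewer cells of a type and less RNA per cell cannot be told apart.

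Ryr2 encodes the ryanodine receptor, the release channel of the store. Its brighter probe set, 1450123_at, read 3769, 3666 and 3146 in knockout banded hearts and 4938, 5435 and 4938 in knockout sham hearts. In wild-type hearts it read 4523, 4660 and 5001 after banding and 4754, 4583 and 5973 after sham surgery. All 3 knockout banded arrays were below every one of the other 9. The log2 difference between knockout banded and knockout sham hearts was -0.53 (SE 0.12, limma adjusted p = 0.0320). After quantile normalisation it was -0.43 (adjusted p = 0.0405). The call was lost with knockout banded 2, knockout banded 3 or any 1 of the knockout sham arrays left out, although the estimate was between -0.58 and -0.45 whichever array was left out, with an adjusted p of 0.150 at most. It was also lost with no filter on low values, after median scaling, with a replicate block and with only the knockout arrays in the fit, where the adjusted p was at most 0.0872.

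The other Ryr2 probe set, 1421126_at, gave 1259, 1570 and 1348 in knockout banded hearts, against 2008, 2665 and 2378 in knockout sham hearts. The groups did not overlap, and the log2 difference was -0.75 (SE 0.17, limma adjusted p = 0.0407 over 20967 probe sets). In wild-type hearts the same probe set overlapped, with 2228, 1590 and 2222 after banding and 1901, 1591 and 2348 after sham surgery. Quantile normalisation left its knockout difference at -0.75 (adjusted p = 0.0368). Both probe sets of the release channel thus passed under either scaling.

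Hrc and Trdn, which encode luminal and membrane partners of the release channel, stood next to Ryr2 in size. Hrc, the histidine-rich calcium-binding protein of the lumen, read 4632, 3389 and 3993 in knockout banded hearts and 5988, 5781 and 5459 in knockout sham hearts. It read 4883, 5718 and 5442 in wild-type banded hearts and 5697, 4366 and 7489 in wild-type sham hearts. The knockout groups did not overlap, while wild-type sham hearts spread on both sides of wild-type banded hearts. The log2 difference in knockout hearts was -0.53 (SE 0.17) and did not pass with arrays scaled as deposited (limma adjusted p = 0.102). After quantile normalisation it was -0.41 with a smaller SE of 0.10 and passed at 1 probe set a gene (limma adjusted p = 0.0441). In the fit of all probe sets the same quantile-normalised difference did not pass (limma adjusted p = 0.0542).

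Trdn encodes triadin, which anchors calsequestrin to the release channel. Its brightest probe set, 1451801_at, read 2675, 1979 and 2019 in knockout banded hearts and 2788, 3301 and 2840 in knockout sham hearts. It read 2598, 2887 and 2824 in wild-type banded hearts and 2427, 3072 and 3011 in wild-type sham hearts. Knockout banded 1 was close to the sham level, and the other knockout banded arrays were the lowest of the 12. The log2 difference was -0.43 (SE 0.13, limma adjusted p = 0.0913). Without knockout banded 1 it was -0.57 and passed (adjusted p = 0.0119), in a comparison where 13.2% of all genes then passed. The 6 Trdn probe sets did not move alike: their differences in knockout hearts were between -0.97 and 0.02, none passed, and 5 of the 6 were negative. The lowest came from the dimmest, 1426143_at, with an SE of 0.62 and readings of 222, 16.5 and 66.6 in knockout banded hearts. The rest were between -0.43 and 0.02.

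Casq2, Jph2 and Asph complete the release unit. Casq2 encodes cardiac calsequestrin, the main calcium buffer of the lumen. It read 4422, 5032 and 5409 in knockout banded hearts, against 5642, 4958 and 5190 in knockout sham hearts. It read 5276, 4698 and 5303 in wild-type banded hearts, against 5018, 3966 and 6719 in wild-type sham hearts. The groups overlapped in both genotypes. The difference in knockout hearts was -0.09 (95% interval -0.44 to 0.26) with arrays scaled as deposited and 0.07 after quantile normalisation, so its sign depended on the scaling. The name of its single probe set ends in _s_at, a class whose probes can match more than one transcript.

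Jph2 encodes junctophilin 2, which holds the reticulum close to the surface membrane. Probe set 1455404_at read 2481, 2441 and 2684 in knockout banded hearts and 3294, 2787 and 2822 in knockout sham hearts, with 2438, 2370 and 2719 in wild-type banded hearts and 2929, 2238 and 2310 in wild-type sham hearts. The knockout groups did not overlap, but the knockout sham arrays were high, and knockout banded hearts lay within the range of the wild-type groups. The log2 difference was -0.22 (SE 0.12, limma adjusted p = 0.300).

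Asph is a locus that encodes an aspartyl hydroxylase and, by alternative splicing, the release-unit protein junctin and the related junctate. Its probe sets diverged in knockout hearts. The brightest, 1425275_at, read 1098, 992 and 984 after banding and 1498, 1075 and 1311 after sham surgery, a log2 difference of -0.32 (SE 0.14, limma adjusted p = 0.193). In contrast, 1426015_s_at read 588, 758 and 749 after banding and 514, 505 and 557 after sham surgery. All banded arrays were above all sham arrays there, as in 2365 of the 20967 probe sets tested. The difference was 0.39 (limma adjusted p = 0.0803 over all probe sets). The name of this probe set also ends in _s_at, so its probes can match more than one transcript. Which Asph transcript each probe set detects is not annotated in the sources used here. In wild-type hearts 1425275_at read 1219, 1195 and 1092 after banding and 1429, 1237 and 1034 after sham surgery. These groups overlapped.

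**Figure D1:**
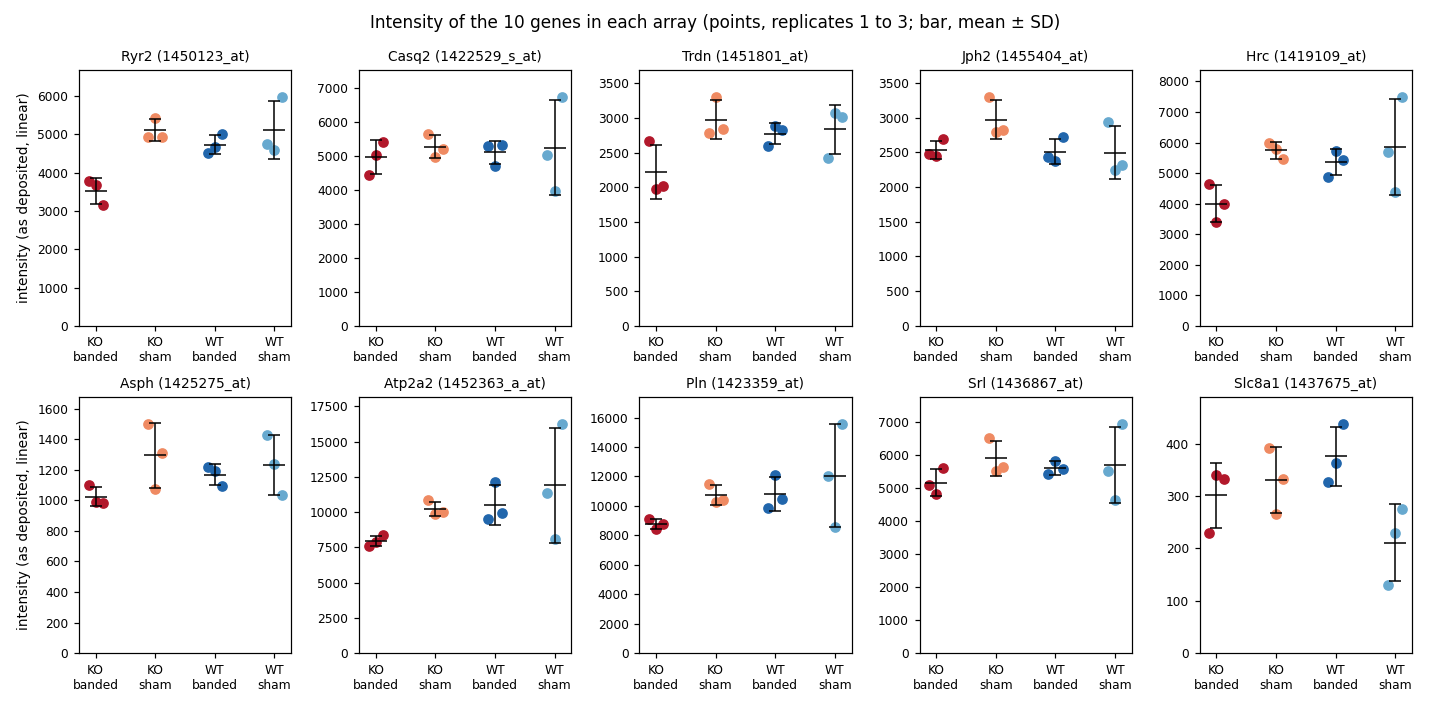
Linear intensity, as deposited, of the brightest probe set of each of the 10 genes in every array, in knockout (KO) and wild-type (WT) hearts after banding or sham surgery. Points are the 3 arrays of a group and bars the mean with SD. The 3 knockout banded points of Ryr2 lie below all 9 others, and the wild-type sham points of Atp2a2 and Pln are the most widely spread in their panels.

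The main probe sets of the uptake genes lay near the top of each array's range, and their estimates were smaller after quantile normalisation. Atp2a2 encodes the SERCA2 calcium pump. Probe set 1452363_a_at read 7619, 7847 and 8355 in knockout banded hearts and 10823, 9858 and 10019 in knockout sham hearts, a log2 difference of -0.37 (SE 0.20, limma adjusted p = 0.309). It read 9516, 12159 and 9906 in wild-type banded hearts and 11343, 8116 and 16223 in wild-type sham hearts. The knockout groups did not overlap. The rank of the probe set within its array was 59, 42 and 37 in knockout banded arrays, against 28 to 33 in knockout sham arrays and 16 to 33 over the wild-type arrays. After quantile normalisation the difference was -0.11 (adjusted p = 0.243), and the knockout banded arrays, at 8599, 9326 and 9657, were still below all 9 others, which lay between 9749 and 10494. How much of the Atp2a2 difference comes from the bright end of the arrays was not tested.

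Pln encodes phospholamban, the inhibitor of the pump. Probe set 1423359_at read 9124, 8453 and 8736 in knockout banded hearts and 11495, 10291 and 10426 in knockout sham hearts, with 9864, 12105 and 10476 in wild-type banded hearts and 12050, 8592 and 15536 in wild-type sham hearts. As with Atp2a2, the knockout groups did not overlap and the wild-type groups did. The log2 difference in knockout hearts was -0.29 (SE 0.18, limma adjusted p = 0.367) and after quantile normalisation -0.01 (adjusted p = 0.932). It held ranks 12 to 26 over the arrays. Among the 100 brightest probe sets of the array, a set chosen after the data were seen, 97 were lower in knockout banded than in knockout sham hearts, with a median log2 difference of -0.30.

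The log2 ratio of Atp2a2 to Pln, which cancels any scaling that the 2 share within an array, averaged -0.14 ± 0.10 in knockout banded hearts and -0.07 ± 0.016 in knockout sham hearts (SD, n = 3 each). It averaged -0.04 ± 0.044 in wild-type banded hearts and -0.04 ± 0.085 in wild-type sham hearts. Its absolute value has no meaning across probes. The difference between knockout groups, -0.07, was within the SD of the banded arrays, and knockout banded 1, at -0.26, was the lowest of the 12 arrays.

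The dimmer Atp2a2 probe sets differed in how far quantile normalisation moved them. Probe set 1427250_at, next in brightness, had a log2 difference of -0.31 in knockout hearts as deposited and -0.20 after it. Probe set 1427251_at read 1787, 1303 and 1133 in knockout banded hearts and 2220, 2668 and 2298 in knockout sham hearts. It read 2142, 1571 and 2496 in wild-type banded hearts and 1992, 2252 and 1951 in wild-type sham hearts. Its log2 difference in knockout hearts, -0.78 (SE 0.18), passed among all probe sets (limma adjusted p = 0.0416) and was -0.77 after quantile normalisation, where it missed the threshold (adjusted p = 0.0548). Probe sets 1437797_at and 1443551_at also had estimates of -0.71 each, with adjusted p of 0.0840 and 0.110, and these moved by under 0.03 with quantile normalisation. After quantile normalisation the 2 brightest probe sets thus gave Atp2a2 differences of -0.11 and -0.02, and the 3 dimmest ones between -0.77 and -0.69. The cause of this disagreement among probe sets of one gene was not tested, and the transcript end or isoform each one detects was not analysed here.

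The control probes for Actb moved in the same comparison. The log2 ratio of its 3′ to its 5′ probe sets was between -0.22 and -0.17 in knockout banded arrays, against -0.01 to 0.30 in knockout sham arrays, 0.08 to 0.28 in wild-type banded arrays and -0.09 to 0.18 in wild-type sham arrays. The same ratio for Gapdh was between -0.39 and -0.32 over all arrays. The part of this difference in the Atp2a2, Ryr2 and Trdn results was not tested.

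**Figure D2:**
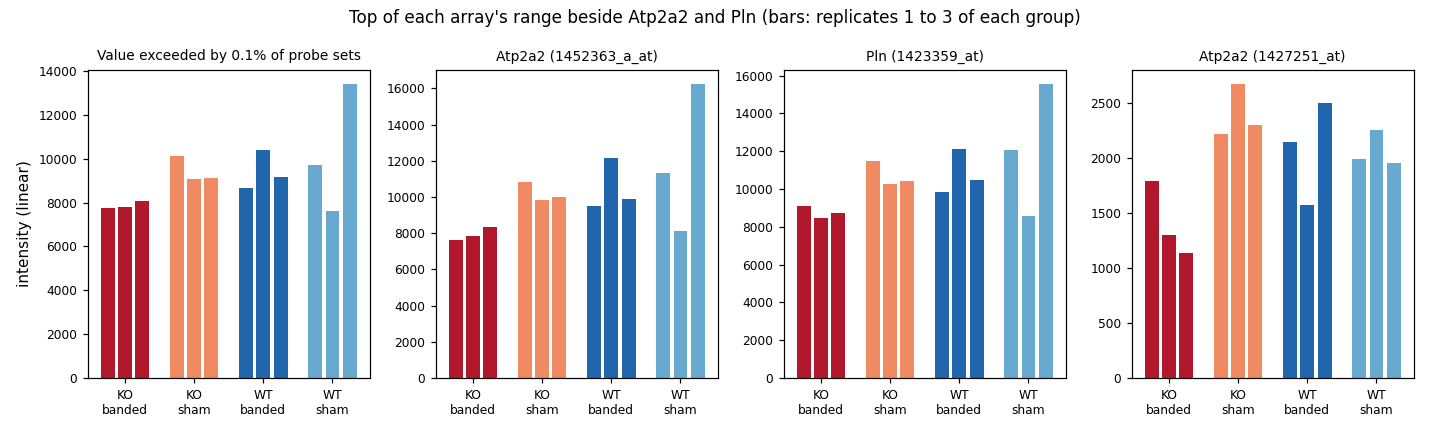
Linear intensity in each array of the value that 0.1% of probe sets exceeded, a bright and a dimmer probe set of Atp2a2, and Pln, with bars for replicates 1 to 3 of each group. Atp2a2 (1452363_a_at) and Pln broadly follow that value, with wild-type sham 3 highest in each of these panels, while Atp2a2 (1427251_at) is lowest in knockout banded arrays 2 and 3.

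Srl encodes sarcalumenin, a calcium-binding glycoprotein of the lumen. It read 5098, 4820 and 5608 in knockout banded hearts, 6525, 5536 and 5658 in knockout sham hearts, 5441, 5842 and 5581 in wild-type banded hearts and 5531, 4650 and 6940 in wild-type sham hearts. All groups overlapped. The log2 difference in knockout hearts was -0.19 (95% interval -0.49 to 0.11) and -0.01 after quantile normalisation.

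Slc8a1 encodes the sodium-calcium exchanger of the surface membrane. Probe set 1437675_at read 231, 341 and 333 in knockout banded hearts and 392, 266 and 333 in knockout sham hearts, a log2 difference of -0.13 (95% interval -0.64 to 0.39). The other Slc8a1 probe sets diverged in knockout hearts: 1420210_at read 82.9, 91.0 and 59.9 after banding and 53.4, 55.1 and 39.4 after sham surgery, without overlap (log2 difference 0.52, limma adjusted p = 0.254), while 1425817_a_at had a difference of 0.06 and 1440201_at one of -0.25. Both 1420210_at and 1440201_at were dim, with means of 59.9 and 37.8 over the 12 arrays, against array medians of 40.3 to 50.4. In wild-type hearts 1437675_at read 328, 364 and 437 after banding and 130, 229 and 275 after sham surgery. Here the wild-type banded arrays were all above the wild-type sham arrays, and wild-type sham 1 was the lowest array of the 12.

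Counted by probe set, 31 of the 32 passed the filter on low values and 1, Asph 1436455_at, did not. In knockout hearts 3 of the 31 passed the test, all lower after banding (2 of Ryr2 and Atp2a2 1427251_at), where 1.04% of the 20967 probe sets tested passed as lower. A negative estimate was found for 26 of the 31, and for 52.6% of all probe sets tested. Probe sets of one gene share its transcripts and are not independent. At 1 probe set a gene, 6 of the 10 genes had all 3 knockout banded arrays below all 3 knockout sham arrays (Atp2a2, Pln, Ryr2, Jph2, Trdn and Hrc), as did 14.4% of all genes tested. After quantile normalisation 4 of the 10 had (Atp2a2, Ryr2, Jph2 and Hrc), as did 13.5% of all genes.

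**Figure D3:**
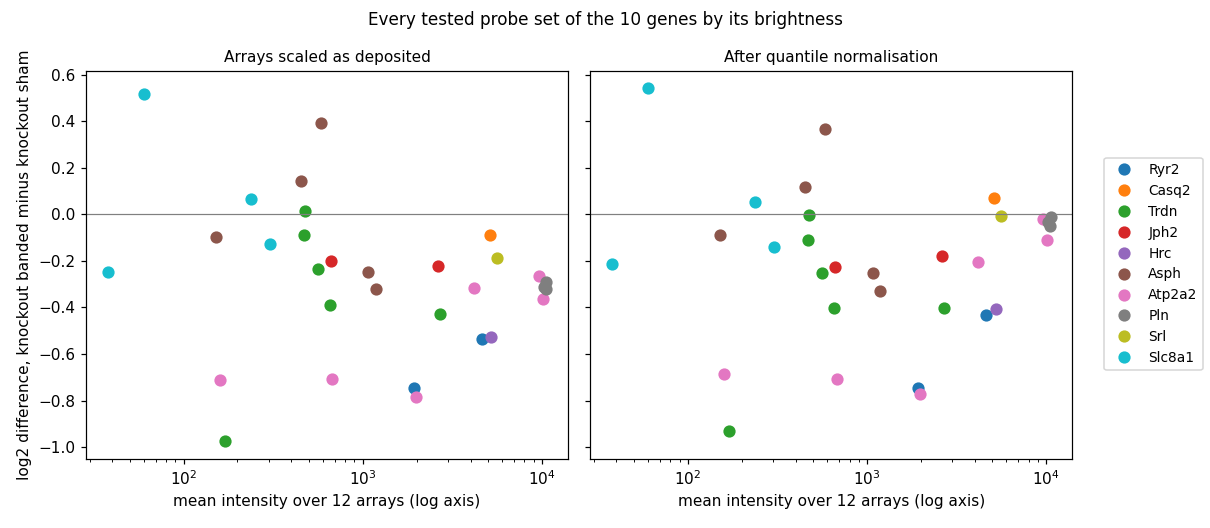
Log2 difference between knockout banded and knockout sham hearts against mean intensity over 12 arrays, for the 31 tested probe sets, coloured by gene. After quantile normalisation (right) the bright probe sets of Pln, Atp2a2, Srl and Casq2 lie close to 0, whereas those of Ryr2, Hrc and the dimmer ones of Atp2a2 remain between -0.77 and -0.41, apart from Atp2a2 1427250_at at -0.20.

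Promoter sequences are shown for 2 genes whose estimates were at or below -0.41 in knockout hearts under both scalings, Ryr2 and Hrc. They are also shown for 2 whose estimates lay between -0.01 and 0.07 after quantile normalisation, Pln and Casq2. As deposited, the estimate was -0.29 for Pln and -0.09 for Casq2. Each window runs from 250 bases before to 50 bases after the RefSeq gene start in GRCm38.p6, 5′ to 3′ on the gene's strand. The windows are chr13:12106896-12107195 on the minus strand for Ryr2, chr7:45335019-45335318 on the plus strand for Hrc, chr10:53337436-53337735 on the plus strand for Pln and chr3:102086165-102086464 on the plus strand for Casq2. Windows of Slc8a1 and Jph2 were also searched, 6 genes in all, and Atp2a2, Trdn, Asph and Srl were not. Capitals mark matches, on either strand, to 7 short motifs of heart and general promoters.
Ryr2: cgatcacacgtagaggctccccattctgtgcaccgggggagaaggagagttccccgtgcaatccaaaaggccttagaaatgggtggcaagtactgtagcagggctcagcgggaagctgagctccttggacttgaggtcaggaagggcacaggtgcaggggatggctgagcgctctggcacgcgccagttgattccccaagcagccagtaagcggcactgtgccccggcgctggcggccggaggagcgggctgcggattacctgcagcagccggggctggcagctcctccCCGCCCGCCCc
Hrc: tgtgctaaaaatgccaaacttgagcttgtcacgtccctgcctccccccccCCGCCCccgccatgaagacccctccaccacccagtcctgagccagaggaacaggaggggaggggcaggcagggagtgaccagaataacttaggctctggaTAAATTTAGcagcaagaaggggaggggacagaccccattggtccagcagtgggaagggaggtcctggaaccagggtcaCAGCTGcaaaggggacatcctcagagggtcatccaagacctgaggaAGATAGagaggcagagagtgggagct
Pln: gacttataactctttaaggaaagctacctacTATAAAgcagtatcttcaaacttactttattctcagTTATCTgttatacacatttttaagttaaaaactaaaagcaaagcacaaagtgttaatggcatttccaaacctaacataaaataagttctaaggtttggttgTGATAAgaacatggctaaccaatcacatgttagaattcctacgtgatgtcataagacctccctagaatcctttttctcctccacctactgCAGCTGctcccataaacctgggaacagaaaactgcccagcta
Casq2: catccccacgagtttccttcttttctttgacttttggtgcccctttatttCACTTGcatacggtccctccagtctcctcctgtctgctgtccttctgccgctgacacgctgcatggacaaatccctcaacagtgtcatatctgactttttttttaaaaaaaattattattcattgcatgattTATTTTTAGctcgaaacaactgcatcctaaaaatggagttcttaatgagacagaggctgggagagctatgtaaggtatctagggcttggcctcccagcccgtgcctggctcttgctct

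The Ryr2 window, with 65.3% G and C against a median of 52.7% over 32851 windows, held only matches to SP1 (GGGCGG, found in 35.7% of all windows), a pair that overlap each other near its end. The Hrc window held 1 match each to MEF2 (CTANNNNTA, in 21.0% of windows), GATA (the letters GATA after A or T and before A or G, in 29.8%), SP1 and the muscle E-box (CAGCTG, in 16.3%). The Pln window, 36.0% G and C, held 2 GATA matches and 1 E-box. It also held 1 match to the letters TATAAA, a core promoter box found in 13.6% of windows, but 219 bases before the start. Casq2 held 1 MEF2 match and 1 to NKX2-5 (CAAGTG, in 13.6%). None of the 6 windows matched TEAD (CATTCC, in 14.7%). No motif was present in Ryr2 and Hrc but absent from the other 4 windows: SP1, which both held, was also in Jph2. These letters describe the windows and do not show that a factor binds there.

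In wild-type hearts none of the 10 genes passed after banding, and neither did any other gene (0% of 10916 by limma, with 534 genes at an unadjusted p under 0.05). The 10 genes had a median log2 difference of -0.05, against -0.02 for all genes. A negative estimate was found for 8 of them, and for 55.8% of all genes. Apart from Slc8a1, the estimates were between -0.13 and 0.02. None of the 10 had all 3 banded arrays below all 3 sham arrays, a pattern found in 6.17% of all genes. Slc8a1 had all of them above, as did 3.76% of all genes. The log2 difference of 1437675_at was 0.84 (SE 0.24, 95% interval 0.32 to 1.35) with an unadjusted limma p of 0.0038 and an adjusted p of 0.897. The other Slc8a1 probe sets had estimates of 0.21 to 0.28 in wild-type hearts, so the size depended on the probe set. With wild-type sham 2 or wild-type sham 3 left out, 0 genes passed as well, and without wild-type sham 1 there were 3, none of them among the 10.

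Averaged over both genotypes, banding gave no call among the 10 genes, against 1.6% of all genes tested. Ryr2 was nearest, with a log2 difference of -0.32 (SE 0.08, limma adjusted p = 0.0809). The median of the 10 was -0.20, against -0.02 for all genes, and -0.08 after quantile normalisation, against -0.01.

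**Figure D4:**
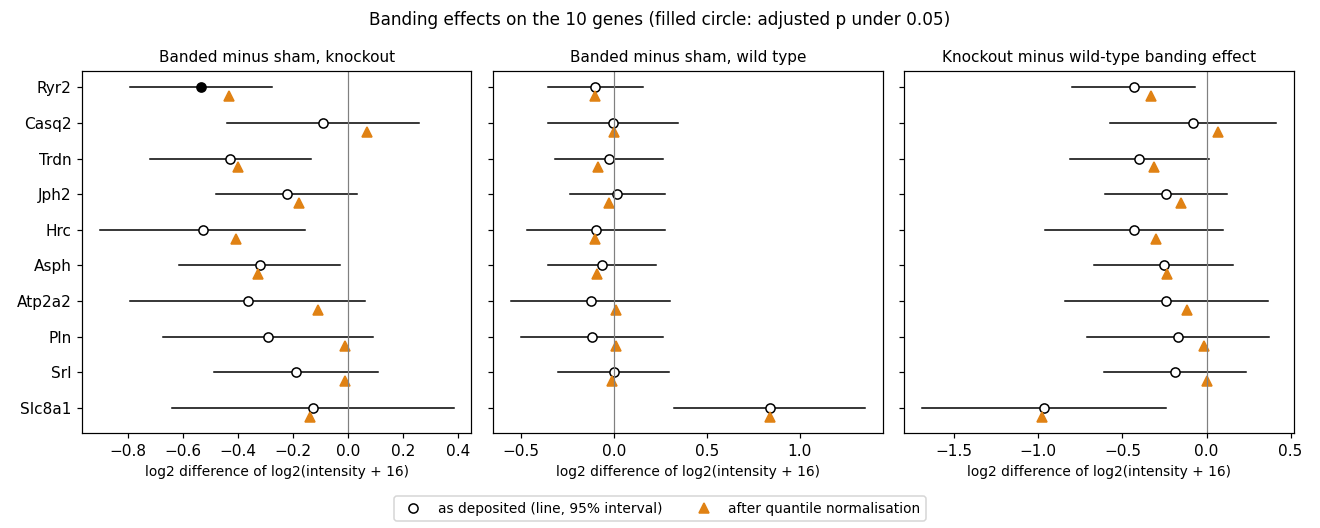
Log2 difference for the brightest probe set of each gene: banded minus sham in knockout hearts (left), in wild-type hearts (middle) and the difference between these effects (right), n = 3 arrays a group. Circles with 95% intervals are limma estimates, and triangles the estimates after quantile normalisation. Ryr2 in knockout hearts is the 1 filled circle, and the wild-type Slc8a1 interval, 0.32 to 1.35, lies above 0.

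Whether the banding effect differed between genotypes was tested directly. None of the 10 genes passed (0% of all genes passed, with 994 at an unadjusted p under 0.05 by limma). All 10 estimates were negative, as were 49.6% of those of all genes, with a median of -0.25 against 0.00. After quantile normalisation 8 of the 10 were negative, with a median of -0.19 against 0.01 for all genes. Of 15 cardiomyocyte markers, 14 were negative, with a median of -0.19 as deposited and -0.04 after quantile normalisation. For Ryr2 this difference, knockout effect minus wild-type effect, was -0.43 (95% interval -0.80 to -0.07, adjusted p = 0.502). For Slc8a1 1437675_at it was -0.97 (95% interval -1.69 to -0.24, adjusted p = 0.449), but the other Slc8a1 probe sets gave -0.46, -0.18 and 0.23, so its sign and size depended on the probe set. For Atp2a2 it was -0.24 (95% interval -0.84 to 0.37), an interval that holds both no difference and one larger than the knockout effect itself. A loss of Ryr2 signal that differs between genotypes was therefore not established at 3 arrays a group, nor was an equal one shown. Without knockout banded 1, 1.91% of all genes passed this test and still none of the 10.

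Between genotypes after sham surgery, none of the 10 genes passed, and 0% of all genes did (570 at an unadjusted p under 0.05). The median of the 10 was 0.05, against 0.00 for all genes. Slc8a1 1437675_at had an estimate of 0.65 (SE 0.24, limma adjusted p = 0.930) and Jph2 one of 0.26 (SE 0.12, adjusted p = 0.930). The other estimates were between -0.16 for Atp2a2 and 0.07 for Trdn. Ryr2 averaged 5103 ± 287 in knockout sham hearts and 5103 ± 758 in wild-type sham hearts (SD, n = 3 each), a log2 difference of 0.01.

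Between genotypes after banding, none of the 10 passed and 0% of all genes did (1594 at an unadjusted p under 0.05 by limma). This comparison shares the knockout banded arrays with the banding effect in knockout hearts. Ryr2 averaged 3527 ± 334 in knockout banded hearts and 4728 ± 246 in wild-type banded hearts (SD, n = 3 each), a log2 difference of -0.42 (SE 0.12, limma adjusted p = 0.169). Hrc averaged 4005 ± 622 in knockout banded hearts and 5347 ± 426 in wild-type banded hearts, a difference of -0.42 (adjusted p = 0.280). Atp2a2, Pln, Ryr2 and Hrc had all knockout banded arrays below all wild-type banded arrays, 4 of 10 where 8.95% of all genes did. After quantile normalisation Atp2a2 and Ryr2 did, 2 of 10 where 7.05% of all genes did. Of the 100 brightest probe sets of the array, 99 had a negative difference in this comparison, with a median of -0.29. The median of the 10 genes was -0.31, against 0.00 for all genes, and -0.18 after quantile normalisation, against 0.02. Without knockout banded 1, 6.11% of all genes and Trdn among the 10 passed this comparison, and with array weights 5.32% of all genes and Ryr2 did. Averaged over both surgeries, genotype gave no call among the 10 genes or over all genes (0%, with 1158 at an unadjusted p under 0.05).

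Across the 12 arrays, the tested genes outside the 10 whose log2 values were most like those of Atp2a2 were Atp5a1 (Pearson r = 0.997), Tpt1 (r = 0.995) and Lpl (r = 0.992). For Pln they were Atp5j2 (r = 0.993), Atp5a1 (r = 0.993) and Cox6c (r = 0.991). All of these share the bright end of the array. After quantile normalisation their r fell to between 0.16 and 0.59, and that of Atp2a2 with Pln was 0.98 as deposited and -0.21 after it. That step leaves the brightest probe sets nearly the same value in every array, so this fall does not show what they shared. For Ryr2 the most alike were Fitm1 (r = 0.935), Znhit1 (r = 0.926) and Fhod3 (r = 0.921), which kept r of 0.87, 0.85 and 0.87. These values describe the same arrays, which also share group differences, and carry no p. Within the 10, Ryr2 had r of 0.81 with Trdn and 0.86 with Hrc as deposited, and 0.84 and 0.72 after quantile normalisation.

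Of 70 other genes of calcium handling, 64 were on the array and 55 were tested. In knockout hearts 1 passed as lower after banding, 1 as higher and 53 did not pass, with a median log2 difference of -0.05. Over all 10916 genes tested, 192 passed as lower and 224 as higher, 3.81% in either direction, with a median of -0.02. Cacnb2, an auxiliary subunit of the L-type calcium channel that triggers release, read 728, 746 and 685 in knockout banded hearts and 1049, 939 and 1007 in knockout sham hearts. The groups did not overlap (log2 difference -0.46, SE 0.08, limma adjusted p = 0.0193). Wild-type hearts lay between them, with 868, 818 and 862 after banding and 764, 833 and 831 after sham surgery. The log2 difference between knockout and wild-type sham hearts was 0.30 (limma adjusted p = 0.930). Micu2, a regulator of the mitochondrial calcium uniporter, read 956, 1120 and 1122 in knockout banded hearts and 725, 805 and 748 in knockout sham hearts, a log2 difference of 0.48 (SE 0.12, adjusted p = 0.0431). Pde4d, a cyclic AMP phosphodiesterase, had the next smallest p, with 394, 268 and 274 in knockout banded hearts and 449, 515 and 440 in knockout sham hearts (log2 difference -0.58, SE 0.16, adjusted p = 0.0587).

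None of the 55 passed in wild-type hearts, where the 3 smallest p belonged to Mrln, Atp2b1 and Jph1. Mrln, which encodes the pump inhibitor myoregulin, averaged 55.7 ± 5.27 in wild-type banded hearts and 82.4 ± 2.97 in wild-type sham hearts (SD, n = 3 each; log2 difference -0.46, limma adjusted p = 0.921). Atp2b1, a calcium pump of the surface membrane, had a difference of 0.28 and Jph1, a junctophilin best known in skeletal muscle, one of -0.37, both at an adjusted p of 0.921. None of the 55 passed in the comparisons of genotype or in the test of the difference between banding effects.

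The tissue markers moved with part of this. All 15 cardiomyocyte markers were measured, and their summed intensity was 116044 to 121371 in knockout banded arrays, 136974 to 153167 in knockout sham arrays, 131816 to 160685 in wild-type banded arrays and 111199 to 210533 in wild-type sham arrays. Their median log2 difference in knockout hearts was -0.28, with 14 of 15 negative and none passing, and -0.01 after quantile normalisation. Over all 10916 genes tested in that comparison, 53.1% of estimates were negative, the median was -0.02 and 224 genes passed as higher. The 7 fibroblast markers had a median of 0.41 in knockout hearts, with 2 passing as higher, and 0.38 after quantile normalisation. In wild-type hearts their median was 0.42, with none passing. Their summed intensity was 7933 to 15180 in knockout banded arrays and 7353 to 8964 in knockout sham arrays. The 7 endothelial markers all had positive estimates in knockout hearts, with a median of 0.18 and none passing, and a summed intensity of 3653 to 3946 in knockout banded arrays, against 3171 to 3490 in knockout sham arrays. In wild-type hearts their median was -0.03. Skeletal muscle markers were low throughout, with a sum of 303 to 641 over 10 genes. The part of these shifts in the Ryr2 and Hrc differences was not tested.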

How the data were processed

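Total RNA of 12 mouse hearts was measured on Affymetrix arrays, 3 in each of 4 groups. The table deposited by the authors holds 1 linear intensity per probe set and array. How they were summarised and scaled is not given in the sources used here. With 2% of values trimmed at each end, every array averaged 150, so no scaling was added. Of 45101 probe sets, 64 controls were left out, 34945 had 1 gene in the platform annotation, 932 several and 9160 none listed here, and 34741 of those with 1 gene matched RefSeq. No 2 arrays were identical.

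A gene's probe set of highest mean log2 stood for the gene, and the upper 60% of genes by mean were tested, 10916 of 18193. The test was limma 3.58.1 (lmFit, eBayes with trend) in R 4.3.3 on log2(intensity + 16), with 4 group means over 12 arrays and 8 residual degrees of freedom. Adding 16 shrinks fold changes of dim probe sets. P-values are two-sided and Benjamini-Hochberg adjusted over all genes tested, for 7 contrasts. A second fit took 20967 single-gene probe sets. Precision is limited by 3 arrays a group. On data simulated for banding in knockout hearts, 83.7% of 200 genes changed 2-fold among 10916 were recovered and 5.1% of calls were false. The largest change among the members in that comparison, 0.691-fold for Ryr2, was smaller than 2-fold. Recovery of changes of the members' size was not simulated, so this rate does not apply to them.

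Alternatives were other filters, added constants, scalings, probe set rules and fits, and leaving out arrays. The genes named are the 10 members, the other calcium genes that passed in a contrast or had the 3 smallest p for banding in a genotype, and the 3 most alike in pattern to Atp2a2, Pln and Ryr2. Ryr2, Atp2a2 and the other members, the gene lists and the motifs were chosen with earlier results of these data known. Same-numbered arrays did not pair: 2 of 18 correlations of their deviations were above 0.1.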

Additional observations from a re-analysis of the deposited data

How the results depend on the processing

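The count of the 10 genes passing for banding in knockout hearts, 1 as reported, was 0 with no filter on low values, after median scaling, with only the groups compared in the fit and with the replicate block. It was 2 after quantile normalisation (Ryr2 and Hrc), with probe sets averaged per gene (Atp2a2 and Ryr2), with every probe set counted by gene (Atp2a2 and Ryr2) and without knockout banded 1 and wild-type banded 3 (Ryr2 and Trdn), and 3 with array weights (Ryr2, Trdn and Hrc). Leaving out each array in turn gave 0 to 3 for it, 0 to 2 for banding averaged over genotypes and 0 to 1 for genotype after banding. Without knockout banded 1 it was 3 (Ryr2, Trdn and Hrc) while 1441 genes passed over all, against 416, and without knockout sham 3 only 9 genes passed. Array weights gave 1 for banding averaged over genotypes (over all genes 769, against 175) and 1 for genotype after banding, and leaving out knockout banded 1 and wild-type banded 3 gave 1 for banding averaged over genotypes. Quantile normalisation at the level of probe sets, added after the data were seen, gave 2 passing probe sets in knockout hearts, against 3. Ryr2 passed for banding in knockout hearts in 8 of 12 other settings, with log2 differences of -0.64 to -0.43 and adjusted p up to 0.0872, and in 7 of 12 fits that left out an array.

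Of 1420 values of single genes under other settings, 1329 kept their direction and side of the threshold, 9 lost and 14 gained a call, and 68 changed sign. Quantile normalisation changed the sign of these log2 differences: Casq2 (0.0681) for banding in knockout hearts, Atp2a2 (0.00725), Pln (0.00748) and Jph2 (-0.0276) for banding in wild-type hearts, Casq2 (0.033) for banding averaged, Pln (0.00284) for genotype after sham surgery, Casq2 (0.12) and Srl (0.0714) for genotype after banding and Casq2 (0.0701) and Srl (0.000419) for the difference between banding effects. Median scaling changed the sign of these: Casq2 (0.0389), Trdn (0.0192) and Srl (0.0442) for banding in wild-type hearts, Casq2 (0.000247) for banding averaged and Casq2 (0.0403) for genotype after banding. Array weights changed these: Casq2 (0.032), Jph2 (-0.00566) and Srl (0.0335) for banding in wild-type hearts and Casq2 (0.0136) for genotype after banding. Averaging probe sets changed these: Slc8a1 (0.0516) for banding in knockout hearts, Asph (0.0517) for banding in wild-type hearts, Trdn (-0.12) for genotype after sham surgery and Jph2 (-0.18) for genotype after banding. Leaving out knockout banded 1 and wild-type banded 3 changed these: Slc8a1 (0.0449) for banding in knockout hearts, Jph2 (-0.0414) and Srl (0.00184) for banding in wild-type hearts, Casq2 (0.0673) for genotype after banding and Casq2 (0.0279) for the difference between banding effects.

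Leaving out each array in turn gave ranges of the log2 difference that cross 0. They were -0.27 to 0.0449 (Slc8a1) for banding in knockout hearts. They were -0.37 to 0.13 (Atp2a2), -0.34 to 0.0825 (Pln), -0.17 to 0.0172 (Ryr2), -0.19 to 0.19 (Casq2), -0.0545 to 0.14 (Jph2), -0.14 to 0.0332 (Trdn), -0.29 to 0.0972 (Hrc), -0.18 to 0.0451 (Asph) and -0.14 to 0.15 (Srl) for banding in wild-type hearts. They were -0.14 to 0.0491 (Casq2) for banding averaged. They were -0.41 to 0.0915 (Atp2a2), -0.35 to 0.0758 (Pln), -0.0636 to 0.13 (Ryr2), -0.14 to 0.24 (Casq2), -0.0352 to 0.13 (Trdn), -0.19 to 0.20 (Hrc), -0.0507 to 0.19 (Asph) and -0.0727 to 0.22 (Srl) for genotype after sham surgery. They were -0.11 to 0.037 (Casq2) and -0.0252 to 0.0751 (Jph2) for genotype after banding. They were -0.49 to 0.0086 (Atp2a2), -0.37 to 0.0538 (Pln) and -0.28 to 0.10 (Casq2) for the difference between banding effects. The causes were not tested. The replicate block, whose numbers do not pair the arrays, left 237 genes passing for banding in knockout hearts, against 416, and 0 of the 10.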
